A study of Mus musculus with 66 samples.

Results

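The genes described here are the 33 listed genes of glucose uptake, glycolysis, lactate and pyruvate handling and the pentose phosphate pathway, out of 23420 gene symbols measured in mouse splenic B cells. They were chosen by name: glucose transporters (Slc2a1, Slc2a3), the glycolytic enzymes from hexokinase to pyruvate kinase, lactate dehydrogenase A (Ldha), lactate transporters (Slc16a1, Slc16a3), regulators of phosphofructokinase and pyruvate dehydrogenase, the mitochondrial pyruvate carrier (Mpc1, Mpc2) and the pentose phosphate enzymes. All 33 were in the files and all 33 were among the 11264 genes tested, which had log2 values over 1 in 4 or more of the 66 libraries. Slc16a3 was over 1 in only 11 libraries, Pfkm in 50 and the other members in 59 or more. The libraries came from germinal centre (GC) B cells, in which antigen receptor genes mutate and selection by T cells takes place, and from naive B cells, 33 libraries each. In one set of 32 libraries (set B) the cells were cultured for 4 h or 2 h with anti-IgM plus anti-CD40, anti-IgM alone, anti-CD40 alone or no stimulus, with 2 libraries in each of 16 groups. In the text on set B, the combination means anti-IgM plus anti-CD40. In the other set of 34 (set A) they were given IL-21 plus anti-CD40 (both agents), IL-21 alone or anti-CD40 alone for the same times. Set A had 3 libraries in each of 12 groups, except GC anti-CD40 at 2 h and naive IL-21 at 2 h, which had 2. Anti-IgM crosslinks the B cell receptor, anti-CD40 stands in for the CD40 ligand of T cells, and IL-21 is a cytokine of follicular helper T cells. All mice were BALB/c (MEG) carrying the IgM B1-8 BCR transgene, so GC and naive cells alike had a transgenic antigen receptor. GC B cells were purified with beads, and the labels give no age, immunization or number of mice.

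Glycolysis splits glucose into pyruvate in the cytosol and yields ATP and building blocks. Hexokinase traps glucose in the cell, phosphofructokinase commits it to the pathway, and the PFKFB enzymes set the level of the metabolite that activates phosphofructokinase. Pyruvate is then reduced to lactate by lactate dehydrogenase and exported by monocarboxylate transporters. It may also enter mitochondria through the pyruvate carrier and be oxidised by pyruvate dehydrogenase, which the PDK kinases switch off. The pentose phosphate pathway diverts glucose 6-phosphate to make NADPH and ribose for nucleotides. Activated B cells are known to take up more glucose than resting ones, and how far GC B cells rely on glycolysis has been debated.

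The 250 bases before a RefSeq start site of 3 genes are shown because they are the hexokinase, lactate dehydrogenase and lactate transporter genes that rose in several of the stimulus comparisons. They were read from RefSeq promoter windows on GRCm38.p6, 5′ to 3′ on the gene's own strand. Capitals mark CACGTG, the E-box letters known to be bound by MYC and its relatives.
Slc16a1 (chr3:104638414-104638663, plus strand): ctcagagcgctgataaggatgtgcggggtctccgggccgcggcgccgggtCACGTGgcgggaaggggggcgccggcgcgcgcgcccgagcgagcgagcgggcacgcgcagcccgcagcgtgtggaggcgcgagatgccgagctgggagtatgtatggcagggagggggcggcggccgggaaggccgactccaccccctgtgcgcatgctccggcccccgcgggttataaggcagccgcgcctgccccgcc
Ldha (chr7:46845554-46845803, plus strand): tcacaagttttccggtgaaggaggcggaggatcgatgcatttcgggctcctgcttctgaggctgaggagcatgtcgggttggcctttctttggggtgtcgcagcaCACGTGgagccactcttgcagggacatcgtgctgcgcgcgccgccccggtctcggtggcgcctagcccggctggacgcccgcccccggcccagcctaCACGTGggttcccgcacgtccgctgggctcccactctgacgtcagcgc
Hk2 (chr6:82774455-82774704, minus strand): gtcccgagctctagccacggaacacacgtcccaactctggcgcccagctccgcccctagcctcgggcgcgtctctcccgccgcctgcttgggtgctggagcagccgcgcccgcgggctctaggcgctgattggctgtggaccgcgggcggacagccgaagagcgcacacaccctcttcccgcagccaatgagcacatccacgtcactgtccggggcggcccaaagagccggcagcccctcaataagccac
CACGTG, which reads the same on both strands, began 200 bases before the RefSeq start of Slc16a1 and 145 and 48 bases before that of Ldha, and these letters were not in the Hk2 window. The Ldha window lies inside the annotated gene (46841475 to 46855627). It is, of the 2 windows listed for Ldha, the one nearest the annotated gene start. Of the 32 members with a RefSeq window, 3 held CACGTG in the first window listed for the gene (9.4%), the other being Pfkm, against 6.0% of the first windows of 27025 genes. The shorter ACGTG, counted on both strands and also contained in every CACGTG, stood in 31.2% of the members' first windows and in 16.6% of all first windows. A match is a run of letters and not a shown binding site.

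Values are the deposited log2 values, which are not per gene length. Differences are log2 differences ± standard error (SE) from a limma fit over all 11264 genes of 1 set, averaged over 4 h and 2 h. Adjusted p-values are Benjamini-Hochberg values over all genes tested in a comparison, and a gene is called at an adjusted p under 0.05. Sequencing depth is unknown, so no value carries a counting interval. In set B, libraries with the same replicate number deviated together, and the highest value in the GC libraries of replicate 1 was 13.835, against 14.582 in the naive libraries of replicate 1 and 14.323 in those of replicate 2 of either cell type. Counts of the fit that takes the number as a block are therefore given beside the set B counts. Its values are given for some of the genes whose call it changes, and not for all of them. Where a gene is said to be uncalled without the block and no block value follows, its call with the block is left unstated. A call said to be lost without a library refers to the fit without the block. In set B, leaving out a library also upsets the balance of the numbers, so such losses do not describe the fit with the block. In lists of 2 values the first is replicate 1 and the second replicate 2. The anti-CD40 libraries of set B are numbered 4 and 5 in the titles and 1 and 2 in the file headers. GC marker genes summed to a log2 level of 8.68 to 11.14 in GC libraries of set B, against 4.75 to 7.22 in naive ones. Several members share stretches of transcript with pseudogenes or paralogs. The share of 50-base stretches also found in other genes was 82.5% for Gapdh, 72.2% for Eno1, 68.0% for Pgk1, 41.5% for Pgam1, 34.4% for Pkm, 23.2% for Mpc1, 19.3% for Gpi1 and 16.6% for Ldha, and their values are uncertain to that extent. It was 0.0% for Slc16a1, Hk2, Pfkp, Slc2a1, Pgls, Pdk1 and Pfkfb4.

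In set B the number of members called depended on the fit. Without the replicate block, of the members in GC B cells, 4 rose (13.9% of all genes) and 2 fell (12.4%) with the combination. With anti-IgM alone 3 rose (5.81% of all genes) and 0 fell (3.23%), and with anti-CD40 alone 3 rose (7.49% of all genes) and 0 fell (6.45%). Of the members in naive B cells, 7 rose (20.7% of all genes) and 3 fell (21.6%) with the combination. With anti-IgM alone 8 rose (15.3% of all genes) and 0 fell (15.2%), and with anti-CD40 alone 5 rose (13.9% of all genes) and 4 fell (14.8%). In either direction, 26.3%, 9.05% and 13.9% of all genes tested were called in GC and 42.3%, 30.4% and 28.7% in naive B cells, for the combination, anti-IgM and anti-CD40. Without the block, the members' shares in either direction were close to or below these in all 6 comparisons. The members' median log2 difference for anti-IgM against no stimulus was 0.02 in GC and 0.26 in naive B cells, beside -0.05 and 0.00 over all genes tested. For the combination the medians were 0.02 in GC and 0.15 in naive B cells, beside -0.06 and 0.00 over all genes. The replicate block brought the members called in GC B cells to 16 (47.6% of all genes) for the combination, 11 (22.8% of all genes) for anti-IgM and 5 (34.7% of all genes) for anti-CD40. For naive B cells it gave 17 (62.9% of all genes), 18 (53.4% of all genes) and 17 (52.2% of all genes). With the block the members' share lay above that of all genes for anti-IgM in GC B cells, at 11 of 33 members. In the other comparisons it was close to or below that of all genes.

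**Figure D1:**
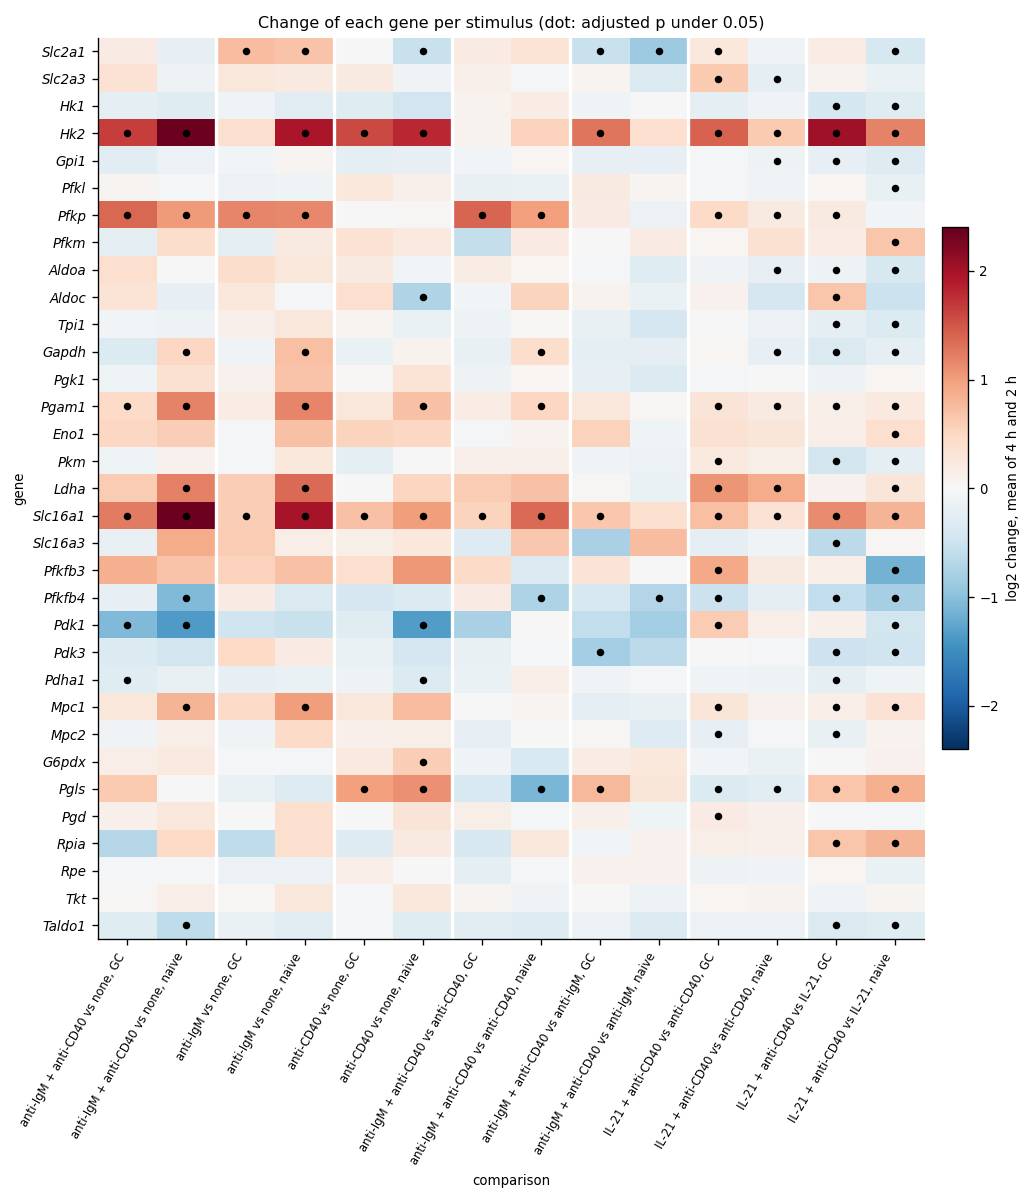
Each row is 1 of the 33 genes and each column a comparison in GC or naive B cells. Colour gives the log2 difference averaged over 4 h and 2 h, red higher and blue lower with the first-named stimulus, and a black dot marks an adjusted p under 0.05 in the fit without replicate block. The rows of Hk2, Pfkp, Pgam1 and Slc16a1 hold rises and no called fall, and Pgk1, Rpe and Tkt hold no dot. Columns that share the unstimulated, anti-CD40 or combination libraries are not independent of each other.

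Slc2a1, which encodes the glucose transporter GLUT1, rose with anti-IgM alone in both cell types and was lower with the combination than with anti-IgM. Slc2a1 in GC B cells stood at 6.64 and 6.09 at 4 h, 6.64 and 6.57 at 2 h with anti-IgM, against 5.85 and 5.31 at 4 h, 5.83 and 5.99 at 2 h without stimulus. The difference was 0.74 ± 0.17 (adjusted p = 0.0069), and every anti-IgM library was higher than every unstimulated one. The call was lost without any 1 of 2 libraries (anti-IgM 4 h replicate 1 and unstimulated 4 h replicate 2; adjusted p up to 0.059). With the combination it stood at 5.86 and 5.70 at 4 h, 6.21 and 6.01 at 2 h, lower than with anti-IgM alone (log2 difference -0.54 ± 0.17, adjusted p = 0.041). That call was lost without any 1 of 7 of the libraries in the fit (adjusted p up to 0.2, without the GC anti-IgM 4 h replicate 1 library). Against no stimulus the combination gave 0.20 ± 0.17 (adjusted p = 0.45). Slc2a1 in naive B cells stood at 7.24 and 7.32 at 4 h, 7.73 and 7.74 at 2 h with anti-IgM, against 6.58 and 6.76 at 4 h, 6.73 and 7.23 at 2 h without stimulus. The difference was 0.68 ± 0.17 (adjusted p = 0.0046). With the combination it stood at 6.21 and 6.20 at 4 h, 6.95 and 7.16 at 2 h, lower than with anti-IgM (log2 difference -0.88 ± 0.17, adjusted p = 0.002). Anti-CD40 alone gave 5.96 and 6.12 at 4 h, 6.41 and 6.71 at 2 h, lower than without stimulus (log2 difference -0.53 ± 0.17, adjusted p = 0.025). That last call was lost without any 1 of 4 libraries (anti-CD40 2 h replicate 4, anti-CD40 4 h replicate 4, unstimulated 2 h replicate 2 and unstimulated 4 h replicate 2; adjusted p up to 0.13). Slc2a3, the GLUT3 transporter, was not called for any stimulus in set B without the replicate block. With the block it rose with the combination in GC B cells by 0.34 ± 0.11 (adjusted p = 0.019). In set A it was higher with both agents than with anti-CD40 in GC B cells and lower in naive B cells. Slc2a3 in GC B cells stood at 5.11, 4.70 and 4.85 at 4 h, 4.31, 4.30 and 4.34 at 2 h with both agents, against 4.32, 4.45 and 4.17 at 4 h, 3.78 and 3.52 at 2 h with anti-CD40. The difference was 0.62 ± 0.09 (adjusted p = 4e-06) in GC and -0.24 ± 0.09 (adjusted p = 0.047) in naive B cells, and the GC minus naive effect was 0.86 ± 0.13 (adjusted p = 2.8e-05). The naive call was lost without any 1 of 18 of the libraries in the fit (adjusted p up to 0.14, without the naive anti-CD40 2 h replicate 1 library).

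Hk2, the inducible hexokinase (chromosome 6, 82725025 to 82774454, minus strand), rose with every stimulus tested against none in naive B cells and with the 2 that included anti-CD40 in GC B cells. Hk2 in GC B cells stood at 5.79 and 4.89 at 4 h, 5.21 and 4.29 at 2 h with the combination, against 3.98 and 2.93 at 4 h, 3.70 and 2.90 at 2 h without stimulus. Anti-IgM alone gave 4.34 and 3.35 at 4 h, 4.11 and 3.23 at 2 h, and anti-CD40 alone 6.11 and 4.91 at 4 h, 4.64 and 4.17 at 2 h. In each of these groups replicate 1 lay above replicate 2, and within each number the combination and anti-CD40 libraries lay above the unstimulated ones. The difference from no stimulus was 1.67 ± 0.40 (adjusted p = 0.0039) for the combination, 0.38 ± 0.40 (adjusted p = 0.8) for anti-IgM and 1.58 ± 0.40 (adjusted p = 0.011) for anti-CD40. The anti-CD40 call was lost without any 1 of 3 libraries (anti-CD40 4 h replicate 4, unstimulated 2 h replicate 2 and unstimulated 4 h replicate 2; adjusted p up to 0.074). With the replicate block the anti-IgM difference was called as well, at 0.38 ± 0.12 (adjusted p = 0.025). The combination exceeded anti-IgM alone by 1.29 ± 0.40 (adjusted p = 0.04). This call was lost without any 1 of 4 libraries (anti-IgM 2 h replicate 2, anti-IgM 4 h replicate 2, anti-IgM plus anti-CD40 2 h replicate 1 and anti-IgM plus anti-CD40 4 h replicate 1; adjusted p up to 0.2). Hk2 in naive B cells stood at 5.43 and 6.03 at 4 h, 5.34 and 6.35 at 2 h with the combination, against 1.99 and 3.16 at 4 h, 3.96 and 4.64 at 2 h without stimulus. Values with anti-IgM were 4.77 and 5.32 at 4 h, 5.31 and 6.14 at 2 h, and with anti-CD40 4.78 and 5.32 at 4 h, 5.05 and 5.79 at 2 h. All 12 stimulated libraries exceeded all 4 unstimulated ones. The differences from no stimulus were 2.35 ± 0.40 (adjusted p = 9.8e-05) for the combination, 1.95 ± 0.40 (adjusted p = 0.00098) for anti-IgM and 1.80 ± 0.40 (adjusted p = 0.0021) for anti-CD40. With the block the combination fell short of the sum of the separate effects, at -1.40 ± 0.17 (adjusted p = 1.1e-05). Without it this departure was -1.40 ± 0.57 (adjusted p = 0.23).

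In set A, Hk2 was highest with IL-21 plus anti-CD40. Hk2 in GC B cells stood at 6.75, 6.76 and 6.40 at 4 h, 5.70, 5.64 and 5.37 at 2 h with both agents, against 4.67, 4.91 and 5.09 at 4 h, 4.48 and 4.47 at 2 h with anti-CD40. The values with IL-21 were 4.65, 4.16 and 3.95 at 4 h, 4.21, 3.80 and 3.67 at 2 h. All 6 GC libraries with both agents lay above all 11 others. The difference was 1.42 ± 0.14 (adjusted p = 2.1e-09) from anti-CD40 and 2.03 ± 0.13 (adjusted p = 1e-13) from IL-21. Hk2 in naive B cells stood at 6.51, 6.45 and 6.29 at 4 h, 5.99, 5.69 and 5.54 at 2 h with both agents, against 5.98, 5.61 and 5.37 at 4 h, 5.33, 5.25 and 5.12 at 2 h with anti-CD40. IL-21 alone gave 4.92, 4.46 and 4.26 at 4 h, 5.43 and 5.02 at 2 h. The differences were 0.64 ± 0.13 (adjusted p = 0.00046) from anti-CD40 and 1.19 ± 0.14 (adjusted p = 2.4e-08) from IL-21. They were smaller than in GC B cells, with GC minus naive effects of 0.79 ± 0.19 (adjusted p = 0.0092) against anti-CD40 and 0.84 ± 0.19 (adjusted p = 0.0017) against IL-21. Hk1, the constitutive hexokinase, was not called in set B for any stimulus without the block. In set A it was lower with both agents than with IL-21 alone, with a difference of -0.42 ± 0.09 (adjusted p = 0.00013) in GC and -0.28 ± 0.09 (adjusted p = 0.0095) in naive B cells. Per kilobase of exon, unstimulated GC B cells at 4 h held Hk1 at a log2 level of 2.39 and Hk2 at 0.88. With both agents at 4 h in set A the levels were 1.46 for Hk1 and 4.06 for Hk2. The sets were scaled separately, so the order of the 2 genes within a set is the comparison these levels allow.

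**Figure D2:**
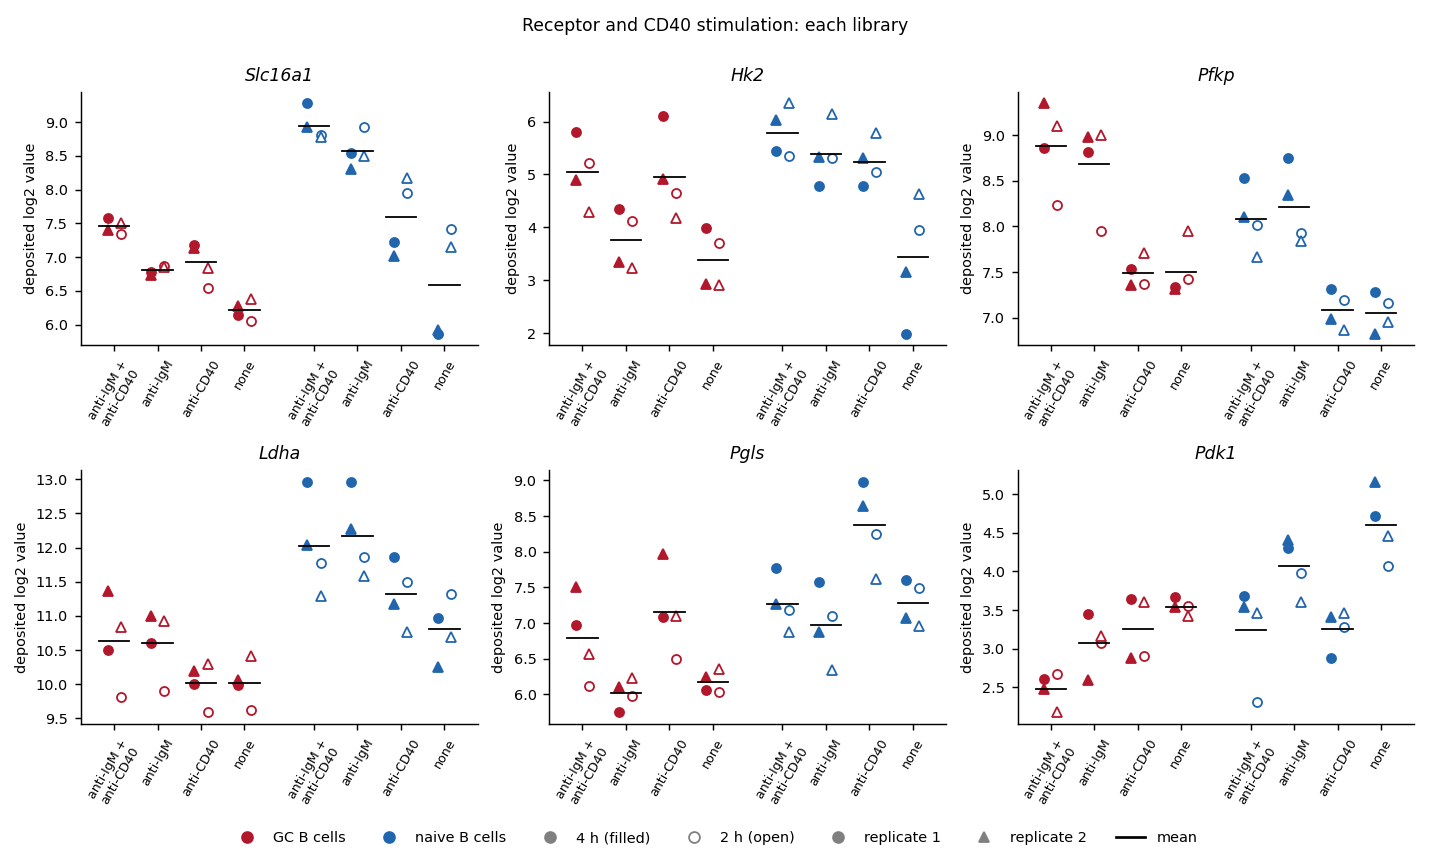
Deposited log2 values of 6 genes in the 32 libraries of set B, by stimulus in GC (red) and naive (blue) B cells. Filled symbols are 4 h and open ones 2 h, circles replicate 1 and triangles replicate 2, and the line is the mean of the 4 libraries. By their means, Slc16a1 and Hk2 lie lowest without stimulus, Pfkp lies higher where anti-IgM was given, Pgls is highest with anti-CD40 alone and Pdk1 is highest without stimulus.

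Among the phosphofructokinase genes, Pfkp, the platelet-type isoform (chromosome 13, 6579768 to 6648777, minus strand), rose wherever anti-IgM was given, and no difference was detectable with anti-CD40 alone. Pfkp in GC B cells stood at 8.85 and 9.35 at 4 h, 8.24 and 9.10 at 2 h with the combination, against 7.33 and 7.31 at 4 h, 7.43 and 7.96 at 2 h without stimulus. Values with anti-IgM were 8.82 and 8.98 at 4 h, 7.95 and 9.003 at 2 h, and with anti-CD40 7.54 and 7.36 at 4 h, 7.38 and 7.71 at 2 h. Libraries with anti-IgM, alone or combined, lay at 7.95 or above, and those without it at 7.96 or below. Compared with no stimulus the difference was 1.38 ± 0.23 (adjusted p = 0.00011) for the combination, 1.18 ± 0.23 (adjusted p = 0.0015) for anti-IgM and -0.01 ± 0.23 (adjusted p = 0.99) for anti-CD40. Pfkp in naive B cells stood at 8.53 and 8.10 at 4 h, 8.01 and 7.66 at 2 h with the combination, against 7.29 and 6.83 at 4 h, 7.16 and 6.96 at 2 h without stimulus. Libraries with anti-IgM held 8.75 and 8.35 at 4 h, 7.93 and 7.84 at 2 h, and those with anti-CD40 7.32 and 6.98 at 4 h, 7.19 and 6.86 at 2 h. All 8 anti-IgM libraries lay above the 8 others. The differences from no stimulus were 1.02 ± 0.23 (adjusted p = 0.0011), 1.16 ± 0.23 (adjusted p = 0.00055) and 0.03 ± 0.23 (adjusted p = 0.95) for the combination, anti-IgM and anti-CD40. Adding anti-IgM to anti-CD40 raised Pfkp by 1.39 ± 0.23 (adjusted p = 0.0003) in GC and 0.99 ± 0.23 (adjusted p = 0.0045) in naive B cells. Adding IL-21 to anti-CD40, in set A, raised it by 0.46 ± 0.05 (adjusted p = 4.8e-09) in GC and 0.22 ± 0.05 (adjusted p = 0.00038) in naive B cells. The GC effect of IL-21 exceeded the naive one by 0.24 ± 0.07 (adjusted p = 0.025). That call was lost without any 1 of 4 libraries (GC anti-CD40 2 h replicate 2, naive anti-CD40 2 h replicate 1, naive anti-CD40 4 h replicate 1 and naive IL-21 plus anti-CD40 2 h replicate 3; adjusted p up to 0.089). Pfkl, the liver-type isoform, was called for 1 stimulus, lower in naive B cells with both agents than with IL-21 (log2 difference -0.17 ± 0.06, adjusted p = 0.017). Pfkm, the muscle-type isoform, was called in the same comparison, at 0.66 ± 0.20 (adjusted p = 0.0052). Its values there were low and overlapped, at 0.78 to 1.749 with both agents and 0.27 to 0.86 with IL-21. Those with IL-21 all lay under the filter value of 1. The Pfkl call was lost without the IL-21 2 h replicate 2 library (adjusted p = 0.14). Per kilobase, unstimulated GC B cells at 4 h held Pfkp at 3.58, Pfkl at 3.18 and Pfkm at 0.72 on the log2 scale. Unstimulated naive B cells at 4 h held Pfkp at 3.31, Pfkl at 4.57 and Pfkm at -0.60.

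The PFKFB genes, whose enzymes make and break down the activator of phosphofructokinase, moved in both directions. Pfkfb3, the isoform with the strongest kinase activity, was not called in set B without the replicate block. Pfkfb3 in GC B cells stood at 5.34 and 4.21 at 4 h, 5.19 and 3.97 at 2 h with the combination, against 4.62 and 2.96 at 4 h, 4.60 and 3.10 at 2 h without stimulus. The replicates lay further apart than the stimuli (0.86 ± 0.61, adjusted p = 0.36). With the block the difference was 0.86 ± 0.13 (adjusted p = 1.2e-05) in GC and 0.69 ± 0.13 (adjusted p = 0.0001) in naive B cells. In set A its response differed between the cell types. Pfkfb3 in GC B cells stood at 5.03, 4.62 and 4.67 at 4 h, 4.61, 4.54 and 4.70 at 2 h with both agents, against 4.001, 4.19 and 4.24 at 4 h, 3.48 and 3.39 at 2 h with anti-CD40. IL-21 alone gave 4.56, 4.07 and 4.07 at 4 h, 4.85, 4.84 and 4.87 at 2 h. Both agents exceeded anti-CD40 by 0.91 ± 0.11 (adjusted p = 9e-08) and differed from IL-21 by 0.15 ± 0.10 (adjusted p = 0.21). Pfkfb3 in naive B cells stood at 4.88, 4.61 and 4.52 at 4 h, 5.12, 4.82 and 4.44 at 2 h with both agents, against 4.80, 4.54 and 4.67 at 4 h, 4.46, 4.21 and 4.43 at 2 h with anti-CD40. The values with IL-21 were 5.86, 5.73 and 5.79 at 4 h, 6.12 and 5.78 at 2 h. There the IL-21 libraries were the highest. Both agents were lower than IL-21 (log2 difference -1.14 ± 0.11, adjusted p = 3.9e-10) and differed from anti-CD40 by 0.21 ± 0.10 (adjusted p = 0.14). The GC effect exceeded the naive one by 1.29 ± 0.15 (adjusted p = 1.3e-07) against IL-21 and by 0.69 ± 0.15 (adjusted p = 0.0033) against anti-CD40.

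Pfkfb4 fell with the combination in naive B cells. Pfkfb4 in naive B cells stood at 2.18 and 2.20 at 4 h, 1.60 and 2.18 at 2 h with the combination, against 3.87 and 3.91 at 4 h, 2.23 and 2.42 at 2 h without stimulus. The difference was -1.07 ± 0.18 (adjusted p = 8.8e-05). Pfkfb4 in GC B cells stood at 2.03 and 2.25 at 4 h, 1.51 and 1.73 at 2 h with the combination, against 2.28 and 2.29 at 4 h, 1.63 and 2.11 at 2 h without stimulus. The difference was -0.20 ± 0.18 (adjusted p = 0.5) there, and the GC minus naive effect was 0.87 ± 0.26 (adjusted p = 0.031). That last call was lost without any 1 of 11 of the libraries in the fit (adjusted p up to 0.091, without the GC unstimulated 2 h replicate 1 library). In naive B cells the combination was also lower than anti-CD40 alone (log2 difference -0.74 ± 0.18, adjusted p = 0.008). This call was lost without the anti-CD40 4 h replicate 4 library (adjusted p = 0.056). It was lower than anti-IgM alone (log2 difference -0.71 ± 0.18, adjusted p = 0.017), a call lost without any 1 of 4 libraries (anti-IgM 2 h replicate 1, anti-IgM 4 h replicate 1, anti-IgM plus anti-CD40 2 h replicate 1 and anti-IgM plus anti-CD40 4 h replicate 2; adjusted p up to 0.096). In set A Pfkfb4 was lower with both agents than with IL-21, at -0.58 ± 0.19 (adjusted p = 0.0097) in GC and -0.80 ± 0.20 (adjusted p = 0.0013) in naive B cells. The GC call was lost without the IL-21 4 h replicate 2 library (adjusted p = 0.053). Against anti-CD40 alone the GC difference was -0.51 ± 0.20 (adjusted p = 0.048). This call was lost without any 1 of 18 of the libraries in the fit (adjusted p up to 0.13, without the GC anti-CD40 2 h replicate 2 library).

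Among the enzymes of lower glycolysis, Pgam1, a phosphoglycerate mutase, rose with each stimulus in naive B cells. Pgam1 in naive B cells stood at 7.47 and 7.49 at 4 h, 7.82 and 7.71 at 2 h with the combination, against 5.92 and 5.76 at 4 h, 6.93 and 7.09 at 2 h without stimulus. Libraries with anti-IgM held 7.46 and 7.19 at 4 h, 7.95 and 7.75 at 2 h, and those with anti-CD40 6.83 and 6.93 at 4 h, 7.40 and 7.36 at 2 h. The unstimulated libraries at 4 h were the lowest of the 16. Differences from no stimulus were 1.20 ± 0.14 (adjusted p = 7.9e-07), 1.16 ± 0.14 (adjusted p = 2.2e-06) and 0.71 ± 0.14 (adjusted p = 0.00058) for the combination, anti-IgM and anti-CD40. Pgam1 in GC B cells stood at 6.99 and 6.93 at 4 h, 6.64 and 6.86 at 2 h with the combination, against 6.61 and 6.08 at 4 h, 6.38 and 6.52 at 2 h without stimulus. The difference was 0.46 ± 0.14 (adjusted p = 0.017). This call was lost without any 1 of 4 libraries (anti-IgM plus anti-CD40 2 h replicate 2, anti-IgM plus anti-CD40 4 h replicate 1, unstimulated 2 h replicate 1 and unstimulated 4 h replicate 2; adjusted p up to 0.12). The GC minus naive effect was -0.99 ± 0.19 (adjusted p = 0.0027) for anti-IgM and -0.74 ± 0.19 (adjusted p = 0.014) for the combination. Gapdh, the dehydrogenase at the middle of the pathway, rose in naive B cells by 0.72 ± 0.13 (adjusted p = 0.00037) with anti-IgM and 0.50 ± 0.13 (adjusted p = 0.005) with the combination. It was not called in GC B cells without the block, and with the block it was lower with the combination (log2 difference -0.33 ± 0.10, adjusted p = 0.012). The GC minus naive effects were -0.80 ± 0.19 (adjusted p = 0.011) for anti-IgM and -0.83 ± 0.19 (adjusted p = 0.0061) for the combination. Of Gpi1, Aldoa, Aldoc, Tpi1, Pgk1, Eno1 and Pkm in set B, Aldoc was called, lower with anti-CD40 in naive B cells (log2 difference -0.72 ± 0.23, adjusted p = 0.024). The call was lost without any 1 of 4 libraries (anti-CD40 2 h replicate 4, anti-CD40 4 h replicate 5, unstimulated 2 h replicate 1 and unstimulated 4 h replicate 1; adjusted p up to 0.1). With the block Aldoa rose in GC B cells by 0.39 ± 0.11 (adjusted p = 0.0067) with the combination. Pgk1 rose in naive B cells with anti-IgM, also with the block, by 0.68 ± 0.13 (adjusted p = 0.00018). Among the middle and lower pathway genes in set A, 5 were lower with both agents than with IL-21 alone in both cell types. Pkm, the pyruvate kinase of most tissues, was lower in GC B cells (log2 difference -0.45 ± 0.06, adjusted p = 1.1e-07), and Gapdh (log2 difference -0.34 ± 0.06, adjusted p = 1.1e-05). The differences were -0.24 ± 0.06 (adjusted p = 0.0011) for Tpi1, -0.20 ± 0.05 (adjusted p = 0.00052) for Gpi1 and -0.13 ± 0.04 (adjusted p = 0.011) for Aldoa. All 5 were called lower in naive B cells too, Gpi1 at -0.31, Aldoa at -0.39, Tpi1 at -0.32, Gapdh at -0.22 and Pkm at -0.21. Over the 14 stimulus comparisons Pkm was called lower in 2 and higher in 1. In GC libraries of set A it ran from 9.952 to 10.367 with both agents and from 9.753 to 10.031 with anti-CD40. Pgam1 was higher with both agents than with IL-21 in GC (0.14 ± 0.05, adjusted p = 0.028) and naive B cells (0.23 ± 0.06, adjusted p = 0.0012). That GC call was lost without any 1 of 5 of the libraries in the fit (adjusted p up to 0.078, without the GC IL-21 2 h replicate 3 library). Pgam1 was also higher than with anti-CD40 alone in GC (0.32 ± 0.06, adjusted p = 6.9e-05) and naive B cells (0.21 ± 0.05, adjusted p = 0.0048). Eno1, an enolase, was higher than with IL-21 in naive B cells by 0.39 ± 0.16 (adjusted p = 0.042), a call lost without any 1 of 6 of the libraries in the fit (adjusted p up to 0.2, without the naive IL-21 2 h replicate 1 library). Its values there were low, at 0.894 to 2.664 with both agents and 0.975 to 2.007 with IL-21. Of its 50-base stretches 72.2% were shared with other genes. Aldoc rose in GC B cells by 0.66 ± 0.24 (adjusted p = 0.023), and its effect exceeded the naive one by 1.17 ± 0.36 (adjusted p = 0.018). The Aldoc call in GC B cells was lost without any 1 of 3 libraries (IL-21 2 h replicate 1, IL-21 4 h replicate 1 and IL-21 plus anti-CD40 2 h replicate 3; adjusted p up to 0.12).

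Ldha, which turns pyruvate into lactate (chromosome 7, 46841475 to 46855627, plus strand), rose with anti-IgM in naive B cells and with IL-21 added to anti-CD40 in both cell types. Ldha in naive B cells stood at 12.96 and 12.03 at 4 h, 11.78 and 11.30 at 2 h with the combination, against 10.97 and 10.25 at 4 h, 11.32 and 10.69 at 2 h without stimulus. Values with anti-IgM were 12.96 and 12.27 at 4 h, 11.86 and 11.59 at 2 h, and with anti-CD40 11.86 and 11.17 at 4 h, 11.50 and 10.77 at 2 h. Differences from no stimulus were 1.21 ± 0.33 (adjusted p = 0.0057), 1.36 ± 0.33 (adjusted p = 0.0035) and 0.51 ± 0.33 (adjusted p = 0.28) for the combination, anti-IgM and anti-CD40. Anti-CD40 was called with the block (0.51 ± 0.13, adjusted p = 0.0028). Ldha in GC B cells stood at 10.50 and 11.37 at 4 h, 9.82 and 10.84 at 2 h with the combination, against 9.99 and 10.07 at 4 h, 9.63 and 10.41 at 2 h without stimulus. Libraries with anti-IgM held 10.61 and 11.001 at 4 h, 9.90 and 10.92 at 2 h, and those with anti-CD40 10.001 and 10.20 at 4 h, 9.59 and 10.30 at 2 h. The GC groups overlapped, and the difference from no stimulus was 0.61 ± 0.33 (adjusted p = 0.2) for the combination and 0.59 ± 0.33 (adjusted p = 0.4) for anti-IgM. With the block these were 0.61 ± 0.13 (adjusted p = 0.00074) and 0.59 ± 0.13 (adjusted p = 0.0024). In set A the GC libraries with IL-21 stood apart from those without it. Ldha in GC B cells stood at 12.62, 12.26 and 11.98 at 4 h, 11.36, 11.19 and 11.32 at 2 h with both agents, against 11.08, 10.82 and 10.67 at 4 h, 10.71 and 10.53 at 2 h with anti-CD40. IL-21 alone gave 11.98, 12.12 and 11.98 at 4 h, 11.46, 11.37 and 11.20 at 2 h. The 12 libraries with IL-21 all lay above the 5 with anti-CD40 alone. Both agents exceeded anti-CD40 by 1.05 ± 0.09 (adjusted p = 1.7e-10), and the difference from IL-21 was 0.10 ± 0.09 (adjusted p = 0.33). Ldha in naive B cells stood at 12.39, 12.26 and 12.12 at 4 h, 11.46, 11.33 and 11.16 at 2 h with both agents, against 11.43, 11.30 and 11.20 at 4 h, 10.65, 10.56 and 10.30 at 2 h with anti-CD40. The values with IL-21 were 11.83, 11.64 and 11.57 at 4 h, 11.32 and 11.30 at 2 h. Both agents exceeded anti-CD40 by 0.88 ± 0.09 (adjusted p = 2.4e-09) and IL-21 by 0.29 ± 0.09 (adjusted p = 0.0089).

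Slc16a1, which encodes the lactate and pyruvate transporter MCT1 (chromosome 3, 104638668 to 104658462, plus strand), was called higher with each stimulus against none in both cell types. Slc16a1 in naive B cells stood at 9.28 and 8.93 at 4 h, 8.81 and 8.77 at 2 h with the combination, against 5.86 and 5.92 at 4 h, 7.41 and 7.15 at 2 h without stimulus. Libraries with anti-IgM held 8.55 and 8.30 at 4 h, 8.93 and 8.50 at 2 h, and those with anti-CD40 7.22 and 7.01 at 4 h, 7.95 and 8.17 at 2 h. The anti-IgM and combination libraries all lay above the others, and the anti-CD40 and unstimulated libraries overlapped across times but not at the same time. The differences from no stimulus were 2.36 ± 0.12 (adjusted p = 1.8e-11) for the combination, 1.99 ± 0.12 (adjusted p = 8.4e-10) for anti-IgM and 1.00 ± 0.12 (adjusted p = 3.8e-06) for anti-CD40. Slc16a1 in GC B cells stood at 7.58 and 7.40 at 4 h, 7.34 and 7.50 at 2 h with the combination, against 6.15 and 6.27 at 4 h, 6.05 and 6.39 at 2 h without stimulus. Anti-IgM alone gave 6.78 and 6.74 at 4 h, 6.87 and 6.85 at 2 h, and anti-CD40 alone 7.18 and 7.13 at 4 h, 6.55 and 6.85 at 2 h. All 12 stimulated GC libraries exceeded the 4 unstimulated ones. The differences were 1.24 ± 0.12 (adjusted p = 2.4e-07), 0.59 ± 0.12 (adjusted p = 0.0029) and 0.71 ± 0.12 (adjusted p = 0.00036) for the combination, anti-IgM and anti-CD40. The combination also exceeded anti-CD40 by 0.53 ± 0.12 (adjusted p = 0.0071) and anti-IgM by 0.65 ± 0.12 (adjusted p = 0.001). The GC minus naive effect was -1.39 ± 0.17 (adjusted p = 3.8e-05) for anti-IgM and -1.12 ± 0.17 (adjusted p = 0.0002) for the combination. For anti-CD40 it was -0.29 ± 0.17 (adjusted p = 0.49). In set A both agents gave the higher values in GC B cells. Slc16a1 in GC B cells stood at 7.31, 6.96 and 6.88 at 4 h, 6.68, 6.84 and 6.90 at 2 h with both agents, against 6.66, 6.12 and 6.41 at 4 h, 6.21 and 5.85 at 2 h with anti-CD40. IL-21 alone gave 5.50, 5.66 and 5.60 at 4 h, 6.25, 6.08 and 5.65 at 2 h. Slc16a1 in naive B cells stood at 7.50, 6.94 and 7.33 at 4 h, 7.58, 7.58 and 7.22 at 2 h with both agents, against 6.68, 6.56 and 6.60 at 4 h, 7.75, 7.33 and 7.14 at 2 h with anti-CD40. The values with IL-21 were 5.86, 5.84 and 6.16 at 4 h, 7.17 and 7.11 at 2 h. Both agents exceeded IL-21 by 1.14 ± 0.12 (adjusted p = 4.5e-09) in GC and 0.81 ± 0.13 (adjusted p = 4.1e-06) in naive B cells. They exceeded anti-CD40 by 0.71 ± 0.13 (adjusted p = 6.2e-05) in GC and 0.35 ± 0.12 (adjusted p = 0.032) in naive B cells. The last of these calls was lost without any 1 of 8 of the libraries in the fit (adjusted p up to 0.11, without the naive anti-CD40 2 h replicate 3 library). Slc16a3, the lactate exporter MCT4 of strongly glycolytic tissues, was low, with 11 of 66 libraries over a log2 value of 1. Per kilobase, with both agents at 4 h it lay at -2.43 on the log2 scale in GC B cells, beside 4.90 for Slc16a1, and at -1.80 in naive B cells, beside 5.11. It was called once, lower in GC B cells with both agents than with IL-21 (-0.63 ± 0.22, adjusted p = 0.015).

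**Figure D3:**
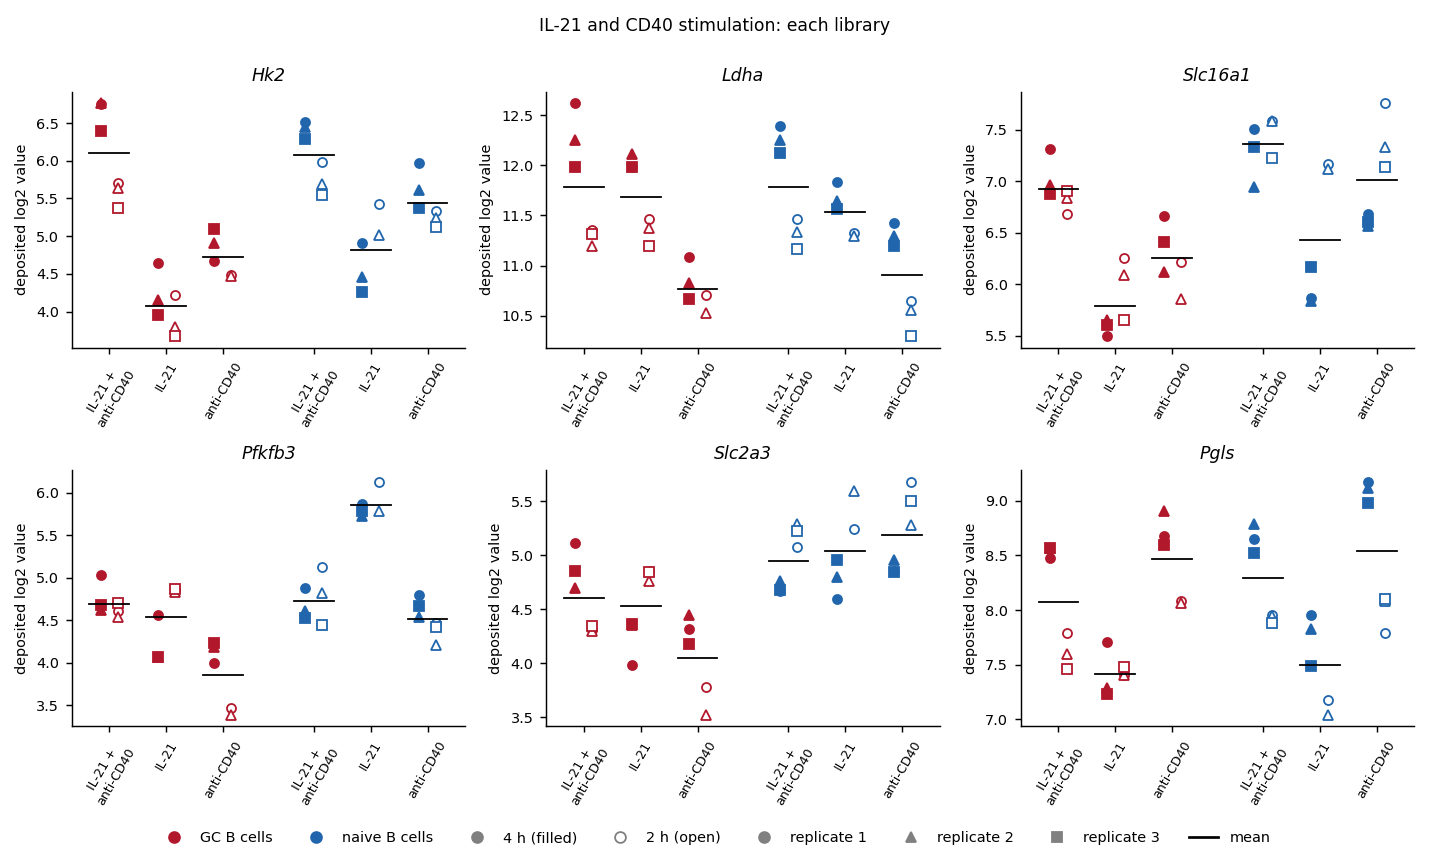
Deposited log2 values of 6 genes in the 34 libraries of set A, by stimulus in GC (red) and naive (blue) B cells. Filled symbols are 4 h and open ones 2 h, the shape gives the replicate number, and the line is the mean over the libraries of both times. In GC B cells all 6 libraries with IL-21 plus anti-CD40 lie above the rest for Hk2, and in naive B cells Pfkfb3 is highest with IL-21 alone.

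Pdk1, a kinase that inactivates pyruvate dehydrogenase, fell with the combination in both cell types and with anti-CD40 alone in naive B cells. Pdk1 in naive B cells stood at 3.68 and 3.54 at 4 h, 2.31 and 3.46 at 2 h with the combination, against 4.72 and 5.16 at 4 h, 4.07 and 4.46 at 2 h without stimulus. Anti-IgM alone gave 4.30 and 4.40 at 4 h, 3.98 and 3.60 at 2 h, and anti-CD40 alone 2.88 and 3.41 at 4 h, 3.28 and 3.47 at 2 h. All naive libraries with anti-CD40, alone or combined, lay below all unstimulated ones. The differences were -1.35 ± 0.25 (adjusted p = 0.00023) for the combination, -0.53 ± 0.25 (adjusted p = 0.13) for anti-IgM and -1.34 ± 0.25 (adjusted p = 0.00047) for anti-CD40. Pdk1 in GC B cells stood at 2.61 and 2.47 at 4 h, 2.67 and 2.17 at 2 h with the combination, against 3.67 and 3.54 at 4 h, 3.55 and 3.43 at 2 h without stimulus. Values with anti-IgM were 3.45 and 2.60 at 4 h, 3.08 and 3.16 at 2 h, and with anti-CD40 3.64 and 2.88 at 4 h, 2.91 and 3.61 at 2 h. The difference was -1.06 ± 0.25 (adjusted p = 0.0035) for the combination. It was -0.48 ± 0.25 (adjusted p = 0.36) for anti-IgM and -0.29 ± 0.25 (adjusted p = 0.58) for anti-CD40, neither of them called. In set A Pdk1 was higher in GC B cells when IL-21 was added to anti-CD40. Pdk1 in GC B cells stood at 3.70, 3.13 and 3.14 at 4 h, 3.30, 2.88 and 3.35 at 2 h with both agents, against 2.80, 2.64 and 2.65 at 4 h, 2.58 and 2.56 at 2 h with anti-CD40. The difference was 0.62 ± 0.15 (adjusted p = 0.0014). In naive B cells it was lower with both agents than with IL-21 (log2 difference -0.45 ± 0.15, adjusted p = 0.011). This call was lost without the IL-21 2 h replicate 2 library (adjusted p = 0.067). Pdk3, another kinase of the complex, was lower in GC B cells with the combination than with anti-IgM (-0.81 ± 0.19, adjusted p = 0.0075). In set A it was lower with both agents than with IL-21 in GC (-0.49 ± 0.05, adjusted p = 2.6e-09) and naive B cells (-0.49 ± 0.06, adjusted p = 1.5e-08). Pdha1, a catalytic subunit of pyruvate dehydrogenase, was called lower in 3 of the 14 stimulus comparisons. In GC libraries of set A it ran from 6.889 to 7.009 with both agents and from 7.006 to 7.346 with IL-21. In set B it was lower with the combination in GC B cells (log2 difference -0.29 ± 0.10, adjusted p = 0.046). The call was lost without any 1 of 16 of the libraries in the fit (adjusted p up to 0.15, without the GC anti-IgM plus anti-CD40 4 h replicate 2 library). With anti-CD40 in naive B cells Pdha1 was lower (log2 difference -0.33 ± 0.10, adjusted p = 0.021), a call lost without any 1 of 4 libraries (anti-CD40 2 h replicate 4, anti-CD40 4 h replicate 4, unstimulated 2 h replicate 2 and unstimulated 4 h replicate 2; adjusted p up to 0.11).

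Mpc1, a subunit of the mitochondrial pyruvate carrier, rose in naive B cells of set B and in 3 comparisons of set A. Mpc1 in naive B cells stood at 6.54 and 5.83 at 4 h, 6.97 and 6.18 at 2 h with the combination, against 5.37 and 4.96 at 4 h, 6.25 and 5.69 at 2 h without stimulus. The values with anti-IgM were 6.70 and 5.76 at 4 h, 7.45 and 6.34 at 2 h. The difference was 0.81 ± 0.31 (adjusted p = 0.044) for the combination and 1.00 ± 0.31 (adjusted p = 0.021) for anti-IgM. The combination call was lost without any 1 of 13 of the libraries in the fit (adjusted p up to 0.17, without the naive anti-IgM plus anti-CD40 2 h replicate 1 library). The anti-IgM call was lost without any 1 of 4 libraries (anti-IgM 2 h replicate 1, anti-IgM 4 h replicate 1, unstimulated 2 h replicate 2 and unstimulated 4 h replicate 2; adjusted p up to 0.12). In GC B cells of set B Mpc1 ran from 4.53 to 5.75 over the 12 stimulated libraries and from 4.48 to 4.85 over the 4 unstimulated ones, with no call without the block. In set A Mpc1 was higher with both agents than with IL-21 in GC (0.16 ± 0.07, adjusted p = 0.036) and naive B cells (0.35 ± 0.07, adjusted p = 9e-05), and higher than with anti-CD40 in GC B cells (0.29 ± 0.07, adjusted p = 0.0017). The GC call against IL-21 was lost without any 1 of 8 of the libraries in the fit (adjusted p up to 0.1, without the GC IL-21 2 h replicate 2 library). Mpc2, its partner, was called in GC B cells of set A, lower with both agents than with anti-CD40 (-0.20 ± 0.07, adjusted p = 0.033) or IL-21 (-0.18 ± 0.07, adjusted p = 0.024). The anti-CD40 comparison lost its call without any 1 of 6 of the libraries in the fit (adjusted p up to 0.12, without the GC anti-CD40 4 h replicate 2 library). The IL-21 comparison lost it without any 1 of 3 libraries (IL-21 4 h replicate 3, IL-21 plus anti-CD40 2 h replicate 3 and IL-21 plus anti-CD40 4 h replicate 2; adjusted p up to 0.065).

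In the pentose phosphate pathway, Pgls, the lactonase that follows glucose 6-phosphate dehydrogenase, rose with anti-CD40. Pgls in GC B cells stood at 7.08 and 7.97 at 4 h, 6.50 and 7.09 at 2 h with anti-CD40, against 6.06 and 6.25 at 4 h, 6.03 and 6.35 at 2 h without stimulus. The difference was 0.99 ± 0.25 (adjusted p = 0.01). Pgls in naive B cells stood at 8.98 and 8.64 at 4 h, 8.24 and 7.62 at 2 h with anti-CD40, against 7.61 and 7.07 at 4 h, 7.49 and 6.96 at 2 h without stimulus. Here the difference was 1.09 ± 0.25 (adjusted p = 0.0026). Every anti-CD40 library exceeded every unstimulated one in both cell types. The GC call was lost without any 1 of 2 libraries (anti-CD40 2 h replicate 5 and anti-CD40 4 h replicate 5; adjusted p up to 0.074). Adding anti-IgM to anti-CD40 lowered Pgls in naive B cells, to 7.77 and 7.28 at 4 h, 7.18 and 6.88 at 2 h (-1.10 ± 0.25, adjusted p = 0.0045). GC B cells with the combination had 6.98 and 7.51 at 4 h, 6.12 and 6.57 at 2 h. The difference from anti-CD40 was -0.36 ± 0.25 (adjusted p = 0.52) without and -0.36 ± 0.09 (adjusted p = 0.0038) with the block. Among GC libraries anti-IgM alone gave 5.75 and 6.11 at 4 h, 5.98 and 6.24 at 2 h, and the combination was higher by 0.78 ± 0.25 (adjusted p = 0.046). This call was lost without any 1 of 14 of the libraries in the fit (adjusted p up to 0.19, without the GC anti-IgM plus anti-CD40 2 h replicate 2 library). Naive B cells given anti-IgM alone had 7.58 and 6.87 at 4 h, 7.10 and 6.35 at 2 h. In set A the anti-CD40 libraries again held high values. Pgls in GC B cells stood at 8.47, 8.56 and 8.56 at 4 h, 7.79, 7.60 and 7.46 at 2 h with both agents, against 8.68, 8.91 and 8.60 at 4 h, 8.08 and 8.06 at 2 h with anti-CD40. IL-21 alone gave 7.70, 7.29 and 7.23 at 4 h, 7.41, 7.41 and 7.48 at 2 h. Pgls in naive B cells stood at 8.65, 8.79 and 8.52 at 4 h, 7.95, 7.95 and 7.88 at 2 h with both agents, against 9.17, 9.12 and 8.98 at 4 h, 7.79, 8.08 and 8.10 at 2 h with anti-CD40. The values with IL-21 were 7.95, 7.83 and 7.49 at 4 h, 7.18 and 7.04 at 2 h. Both agents exceeded IL-21 by 0.66 ± 0.08 (adjusted p = 3.7e-08) in GC and 0.86 ± 0.09 (adjusted p = 8.7e-10) in naive B cells. Compared with anti-CD40 they were lower, at -0.32 ± 0.09 (adjusted p = 0.0036) in GC and -0.25 ± 0.08 (adjusted p = 0.021) in naive B cells. The naive call was lost without any 1 of 4 libraries (anti-CD40 2 h replicate 2, anti-CD40 2 h replicate 3, anti-CD40 4 h replicate 1 and IL-21 plus anti-CD40 4 h replicate 3; adjusted p up to 0.063).

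G6pdx, the entry enzyme of the pathway, rose with anti-CD40 in naive B cells (0.58 ± 0.15, adjusted p = 0.0066). Rpia, which interconverts pentose phosphates, rose with anti-CD40 added to IL-21 by 0.66 ± 0.20 (adjusted p = 0.0065) in GC and 0.82 ± 0.22 (adjusted p = 0.002) in naive B cells. Rpia in GC B cells stood at 3.91, 4.14 and 3.93 at 4 h, 3.64, 3.05 and 2.77 at 2 h with both agents, against 3.61, 2.47 and 2.77 at 4 h, 2.68, 2.78 and 3.14 at 2 h with IL-21. Rpia in naive B cells stood at 3.63, 4.18 and 3.58 at 4 h, 2.88, 2.85 and 3.02 at 2 h with both agents, against 3.32, 3.02 and 2.37 at 4 h, 2.17 and 2.19 at 2 h with IL-21. The groups of each cell type overlapped. Taldo1, the transaldolase of the non-oxidative branch, was lower with both agents than with IL-21, at -0.36 ± 0.06 (adjusted p = 3.5e-06) in GC and -0.29 ± 0.06 (adjusted p = 0.00015) in naive B cells. It was also lower with the combination than without stimulus in naive B cells (-0.60 ± 0.12, adjusted p = 0.00041). Pgd, a dehydrogenase of the oxidative branch, was higher with both agents than with anti-CD40 in GC B cells (0.21 ± 0.05, adjusted p = 0.0019). Tkt and Rpe were not called in any of the 14 stimulus comparisons without the block.

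The counts for set A stand against a wide background. With both agents compared with anti-CD40, 12 rose (15.4% of all genes) and 3 fell (17.8%) in GC B cells. The same comparison in naive B cells had 5 that rose (10.6% of all genes) and 5 that fell (13.7%). Compared with IL-21 alone, 8 rose (25.5% of all genes) and 12 fell (31.1%) in GC B cells. Naive B cells had 9 that rose (26.6% of all genes) and 13 that fell (28.6%). With both agents against IL-21 in GC B cells, 4 of 6 myeloid, 2 of 3 T cell, 1 of 2 erythroid and 1 of 3 stromal and endothelial markers tested fell as well. Their part in these counts was not tested. The members' median differences from anti-CD40 were 0.06 in GC and -0.05 in naive B cells, beside -0.03 and -0.01 over all genes. From IL-21 they were 0.05 in GC and -0.11 in naive B cells, beside -0.05 and -0.01. In set B the combination was also compared with each of its parts. Against anti-CD40 alone 2 rose (5.66% of all genes) and 0 fell (3.65%) in GC B cells, and 4 rose (6.88% of all genes) and 2 fell (7.56%) in naive B cells. Against anti-IgM alone 3 rose (7.16% of all genes) and 2 fell (5.7%) in GC B cells, and 0 rose (3.05% of all genes) and 2 fell (5.06%) in naive B cells. The block brought these counts to 6 (25.8% of all genes) and 12 (33.5% of all genes) against anti-CD40 in GC and naive B cells, and to 5 (30.4% of all genes) and 11 (26.4% of all genes) against anti-IgM. No member departed from the sum of the 2 separate effects by the limma fit, where 0.16% of all genes did in GC and 3.44% in naive B cells. At an unadjusted p under 0.05 there were 2 members in GC and 6 in naive B cells. In the fit with the block, Pdk3 departed in GC B cells (-0.64 ± 0.12, adjusted p = 0.0062) as the 1 member called, beside 1.54% of all genes. In naive B cells 10 departed, 9 of them lower than the sum, beside 19.3% of all genes.

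GC and naive B cells were also compared directly in their responses. For anti-IgM, the signed effect was higher in GC for 0 members (5.03% of all genes) and lower for 3 (3.82%). For the combination it was higher for 1 (7.08%) and lower for 3 (4.84%). The 1 was Pfkfb4, which fell in naive B cells and was not called in GC B cells. None was called for anti-CD40 by limma (4.11% of all genes), where 4 had an unadjusted p under 0.05. The block raised these counts to 8 (29.2% of all genes) for anti-IgM, 9 (32.2% of all genes) for the combination and 4 (18.5% of all genes) for anti-CD40. Among those for anti-IgM were Hk2 at -1.57 ± 0.17 (adjusted p = 8.7e-07) and Ldha at -0.78 ± 0.19 (adjusted p = 0.0038). For IL-21 added to anti-CD40, the effect was higher in GC B cells for 4 members (3.12% of all genes) and lower for none (2.65%). The 4 were Slc2a3, Hk2, Pfkfb3 and Pfkp. For anti-CD40 added to IL-21, it was higher for 7 (11.2%) and lower for 2 (10%). The 7 were Pfkfb3, Aldoc, Hk2, Slc2a1 (0.57 ± 0.12), Pdk1 (0.56 ± 0.20), Pfkp (0.26 ± 0.07) and Aldoa (0.25 ± 0.06), and the 2 were Mpc2 (-0.28 ± 0.10) and Pkm (-0.24 ± 0.08). A higher signed effect was not always a larger one. The Pfkfb3 effect was 0.15 in GC and -1.14 in naive B cells, Aldoa fell by less in GC (-0.13) than in naive B cells (-0.39), and Pkm fell by more (-0.45 and -0.21). The call of Pdk1 was lost without any 1 of 17 libraries, that of Pkm without any 1 of 14 and that of Mpc2 without any 1 of 23. Their adjusted p-values reached 0.13, 0.092 and 0.09.

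Other genes around the pathway, from lists of isozymes, the pyruvate dehydrogenase complex, the citric acid cycle, branches from glycolysis and regulators, were read in the same fits. Myc, a transcription factor that drives growth metabolism, rose in GC B cells by 3.40 ± 0.21 with the combination, 1.25 ± 0.21 with anti-IgM and 2.77 ± 0.21 with anti-CD40. Its rises in naive B cells were 3.08 ± 0.21, 2.44 ± 0.21 and 1.57 ± 0.21 in the same order. Txnip, an inhibitor of glucose uptake, fell with the combination in GC (-1.66 ± 0.35) and naive B cells (-2.30 ± 0.35). With the combination 13.9% of all genes rose and 12.4% fell in GC B cells, and 20.7% rose and 21.6% fell in naive ones. Of the 12 regulators tested, 1 rose and 1 fell in GC B cells, and 3 rose and 4 fell in naive ones. Among 12 other isozymes tested, 2 rose and 1 fell with the combination in GC B cells, and 1 rose and 6 fell in naive ones. Eno2, the enolase first described in neurons, rose by 3.41 ± 0.42 in GC B cells and by 5.36 ± 0.42 in naive ones. Slc2a6, a further glucose transporter family member, rose by 2.79 ± 0.21 in GC B cells. Of the 7 genes of the pyruvate dehydrogenase complex, none was called with the combination in GC B cells. In naive ones 3 rose, Pdp1, the phosphatase that reactivates the complex, by 0.90 ± 0.17, Pdp2 by 1.36 ± 0.47 and Pdhx by 0.60 ± 0.21. Of 17 citric acid cycle genes, none rose and 2 fell with the combination in GC B cells (Fh1 -0.65 ± 0.14 and Cs -0.27 ± 0.10), and 1 rose and 1 fell in naive ones. In set A, 13 of 17 were lower with both agents than with IL-21 in GC B cells (31.1% of all genes) and 1 was higher (25.5%). Sdha (-0.63 ± 0.05), Fh1 (-0.64 ± 0.06) and Cs (-0.52 ± 0.05) had the smallest adjusted p. The naive B cells had 6 lower (28.6%) and 1 higher (26.6%). Of the 15 branch genes, 1 rose and 3 fell with the combination in GC B cells, and 3 rose and 4 fell in naive ones. Psat1 of serine synthesis rose in naive B cells by 2.11 ± 0.18. Gpd1l of the glycerol 3-phosphate branch fell in GC (-1.59 ± 0.17) and naive B cells (-2.00 ± 0.17).

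Levels differed between the 2 cell types for most members. Without stimulus 13 were higher in GC than in naive B cells (24.1% of all genes) and 11 lower (29.6%). The median difference was 0.12 for the members and -0.07 for all genes. With the block 28 members were called (74.6% of all genes). Gapdh (1.48 ± 0.13, adjusted p = 2e-08), Pfkm (1.35 ± 0.24, adjusted p = 0.00011) and Pgk1 (1.09 ± 0.35, adjusted p = 0.014) were among the higher ones in GC B cells. Slc2a3 (-1.15 ± 0.23, adjusted p = 0.00032), Pfkl (-1.14 ± 0.19, adjusted p = 4.2e-05), Pgls (-1.11 ± 0.25, adjusted p = 0.001) and Slc2a1 (-1.09 ± 0.17, adjusted p = 2.7e-05) were among the lower ones. Slc2a1 was lower in every unstimulated GC library than in every unstimulated naive one. Its mean difference was -0.82 within replicate 1 and -1.35 within replicate 2. Replicate numbers disagreed about size for several genes. The highest value in a library also differed between GC and naive B cells in replicate 1 (13.835 and 14.582) and not in replicate 2 (14.323). The part of scaling in these sizes was not tested. Pgk1 differed by 1.97 within replicate 1 and 0.21 within replicate 2, and its call was lost without any 1 of 4 libraries (GC unstimulated 2 h replicate 1, GC unstimulated 4 h replicate 1, naive unstimulated 2 h replicate 1 and naive unstimulated 4 h replicate 1; adjusted p up to 0.1). Rpia had the largest estimate, 3.41 ± 1.26 (adjusted p = 0.029). Unstimulated GC B cells had Rpia at 5.97 and 3.50 at 4 h, 5.85 and 3.55 at 2 h, against 0.40 and 2.92 at 4 h, -0.56 and 2.47 at 2 h in naive ones. It differed by 6.0 within replicate 1 and by 0.83 within replicate 2. Its call was lost without any 1 of the same 4 libraries (adjusted p up to 0.13). All 24 called members had the same direction within both numbers. With the combination, 12 members were higher (25.7% of all genes) and 10 lower in GC B cells (28.3%), and 29 were called with the block (74%). The largest called falls were of Slc16a1 (-1.49 ± 0.12, adjusted p = 6.7e-09), Mpc1 (-1.49 ± 0.31, adjusted p = 0.00055), Ldha (-1.39 ± 0.33, adjusted p = 0.0015) and Mpc2 (-1.13 ± 0.31, adjusted p = 0.005), and the largest called rise was of Aldoc (1.46 ± 0.23, adjusted p = 2.8e-05). Rpia had a larger estimate that was not called (2.24 ± 1.26, adjusted p = 0.14). Ldha differed by -2.21 within replicate 1 and -0.56 within replicate 2. In set A, with both agents, 15 members were higher (34.2% of all genes) and 11 lower (38.1%). Among the higher were Aldoc (2.32 ± 0.24, adjusted p = 1.1e-09), Gapdh (1.39 ± 0.06, adjusted p = 2.4e-19), Tpi1 (1.06 ± 0.06, adjusted p = 5.3e-16) and Pfkm (1.05 ± 0.18, adjusted p = 8.9e-06). Pdk3 (1.04 ± 0.05, adjusted p = 3.3e-17) and Taldo1 (1.02 ± 0.06, adjusted p = 3.4e-16) were higher too. Pfkfb4 (-1.08 ± 0.19, adjusted p = 8.7e-06) and Mpc1 (-0.92 ± 0.07, adjusted p = 1.3e-13) were lower. Slc2a1, Slc2a3, Pfkl, Slc16a1, Pdk1, Mpc1 and Mpc2 were called lower in GC B cells in all 3 of these comparisons, and Gpi1, Pfkm, Aldoc, Tpi1, Gapdh, Pkm, Pdk3, Pdha1, Pgd, Tkt and Taldo1 higher. Several of these calls were lost without a single library. Without stimulus the call of Mpc1 was lost without any 1 of 4 libraries (GC unstimulated 2 h replicate 1, GC unstimulated 4 h replicate 2, naive unstimulated 2 h replicate 1 and naive unstimulated 4 h replicate 1; adjusted p up to 0.077). That of Mpc2 was lost without any 1 of 4 libraries (GC unstimulated 2 h replicate 1, GC unstimulated 4 h replicate 1, naive unstimulated 2 h replicate 1 and naive unstimulated 4 h replicate 1; adjusted p up to 0.11). That of Pdk3 was lost without any 1 of 4 libraries (GC unstimulated 2 h replicate 2, GC unstimulated 4 h replicate 2, naive unstimulated 2 h replicate 2 and naive unstimulated 4 h replicate 2; adjusted p up to 0.11). The call of Slc16a1 without stimulus (-0.37 ± 0.12, adjusted p = 0.016) was lost without any 1 of 3 libraries (GC unstimulated 2 h replicate 1, GC unstimulated 4 h replicate 1 and naive unstimulated 2 h replicate 1; adjusted p up to 0.092). With the combination the call of Pfkm was lost without any 1 of 3 libraries (GC anti-IgM plus anti-CD40 4 h replicate 1, naive anti-IgM plus anti-CD40 2 h replicate 1 and naive anti-IgM plus anti-CD40 4 h replicate 2; adjusted p up to 0.089), and that of Slc2a3 without the naive anti-IgM plus anti-CD40 2 h replicate 2 library (adjusted p = 0.078). The Pdk1 call was lost without any 1 of 2 libraries (GC anti-IgM plus anti-CD40 2 h replicate 2 and naive anti-IgM plus anti-CD40 2 h replicate 2; adjusted p up to 0.11). The Pdk3 call was lost without any 1 of 2 libraries (naive anti-IgM plus anti-CD40 2 h replicate 2 and naive anti-IgM plus anti-CD40 4 h replicate 2; adjusted p up to 0.063), and the Pgd call without any 1 of 2 libraries (GC anti-IgM plus anti-CD40 4 h replicate 2 and naive anti-IgM plus anti-CD40 2 h replicate 1; adjusted p up to 0.13). With both agents in set A the Pdk1 call was lost without any 1 of 6 of the libraries in the fit (adjusted p up to 0.089, without the GC IL-21 plus anti-CD40 2 h replicate 2 library).

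Markers of other cells moved with these differences. Summed T cell markers (5 of 6 listed genes used) lay at -2.21 to -0.17 in GC and 1.11 to 2.60 in naive libraries of set B on the log2 scale, and Cd8a was at -4.90 to -4.66 in GC libraries. Summed myeloid markers (6 of 6) lay at 2.41 to 3.69 in GC and 5.84 to 8.20 in naive libraries, and erythroid markers (4 of 6) at 1.17 to 2.96 and 4.25 to 5.70. In set A, T cell markers lay at -0.78 to 0.88 in GC and 2.45 to 3.61 in naive libraries. The myeloid sums were 5.25 to 6.76 and 6.01 to 7.42, and the erythroid sums 5.13 to 6.76 and 3.22 to 5.35. All 3 T cell markers, 3 of 6 myeloid and both erythroid markers tested were called lower in GC B cells without stimulus. In the set B comparisons with no stimulus, 1 of 6 myeloid, 1 of 2 erythroid and 2 of 3 stromal and endothelial markers were lower with the combination in GC B cells. The naive B cells had 1 of 6 myeloid, 1 of 3 stromal and endothelial and the 1 plasma cell marker lower. The part of these markers in the results was not tested. In bulk RNA, fewer cells of a type and less RNA per cell cannot be told apart.

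**Figure D4:**
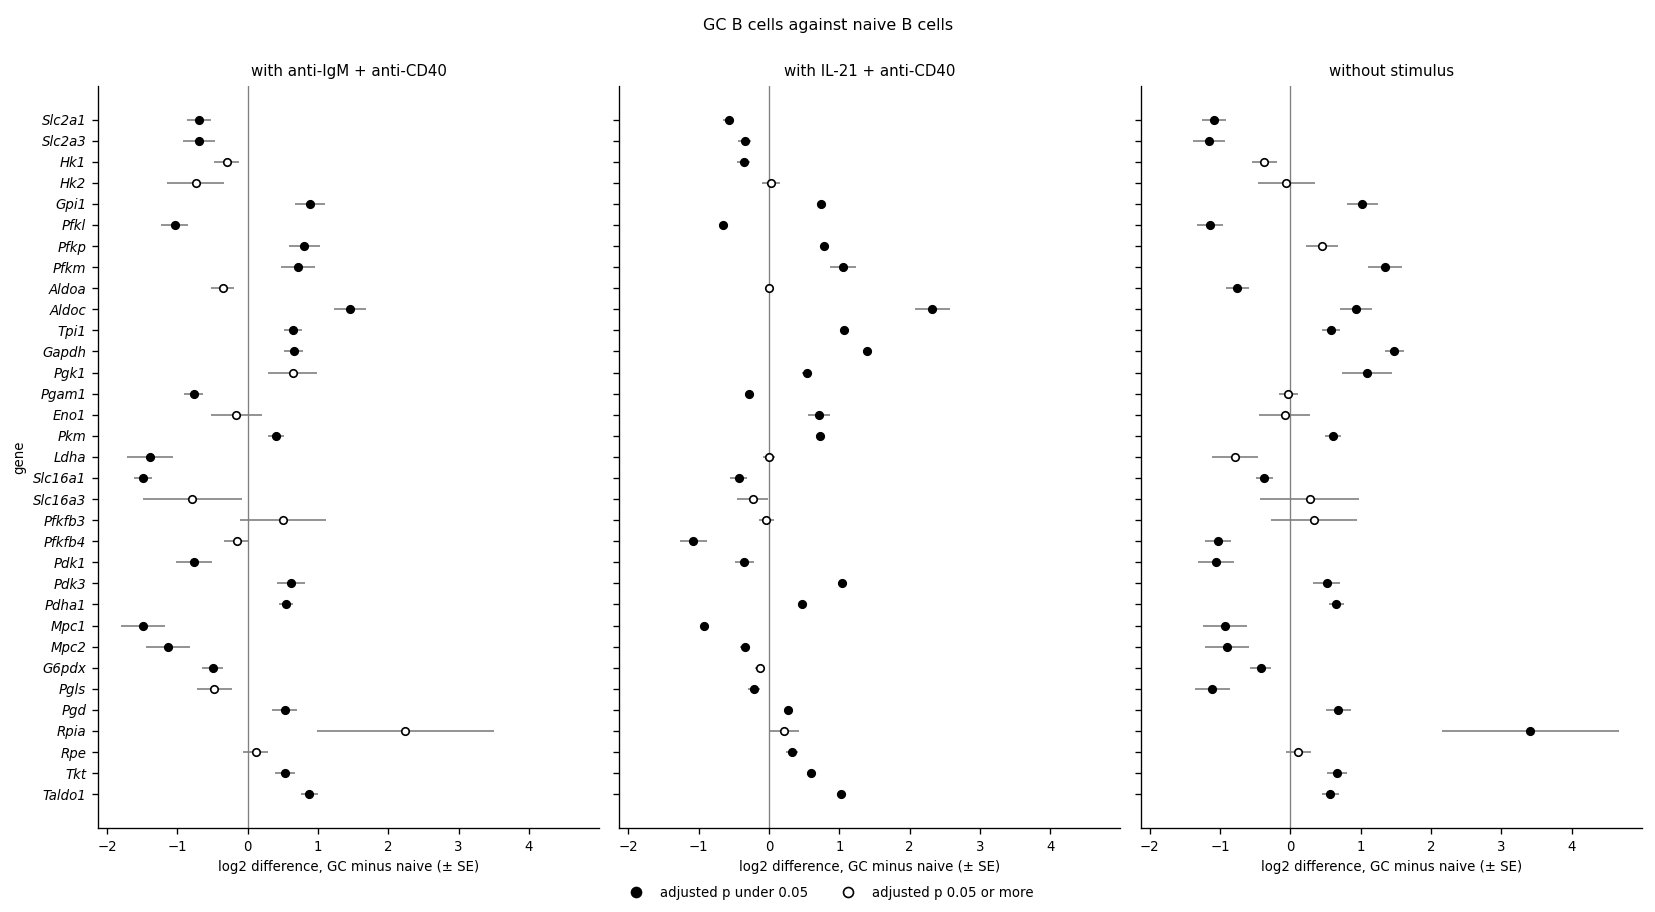
Log2 difference, GC minus naive B cells, for each of the 33 genes with anti-IgM plus anti-CD40, with IL-21 plus anti-CD40 and without stimulus, averaged over 4 h and 2 h. Bars are ± SE from the limma fit and filled points have an adjusted p under 0.05. Gapdh and Aldoc lie to the right in every panel, Slc2a1 and Pfkl to the left, and the widest bars without stimulus belong to Rpia.

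Time in culture changed 7 of these genes in naive B cells even without stimulus. At 4 h compared with 2 h, 4 rose (7.95% of all genes) and 3 fell (7.17%). None was called in GC B cells by limma (0.213% of all genes), nor had any an unadjusted p under 0.05. The block gave 16 (41.2% of all genes) in naive B cells and 0 (4.32% of all genes) in GC B cells. Hk1 had 6.35 and 6.61 at 4 h and 4.62 and 5.18 at 2 h in unstimulated naive B cells, a rise of 1.58 ± 0.24 (adjusted p = 0.00034). Hk2 had 1.99 and 3.16 at 4 h and 3.96 and 4.64 at 2 h, lower at 4 h (log2 difference -1.73 ± 0.57, adjusted p = 0.048). The Hk2 call was lost without any 1 of 13 of the libraries in the fit (adjusted p up to 0.33, without the naive unstimulated 4 h replicate 1 library). Pfkfb4 was higher at 4 h by 1.56 ± 0.26 (adjusted p = 0.00056), Aldoa by 0.86 ± 0.23 (adjusted p = 0.017) and Pkm by 0.52 ± 0.16 (adjusted p = 0.028). Slc16a1 and Pgam1 were lower, at -1.39 ± 0.17 (adjusted p = 6.1e-05) for Slc16a1 and -1.17 ± 0.19 (adjusted p = 0.00059) for Pgam1. The Aldoa call was lost without any 1 of 3 libraries (unstimulated 2 h replicate 1, unstimulated 2 h replicate 2 and unstimulated 4 h replicate 1; adjusted p up to 0.15). The Pkm call was lost without any 1 of the same 3 (adjusted p up to 0.21). These shifts in unstimulated cells enter every comparison with no stimulus. In naive B cells the effect of the combination at 4 h minus that at 2 h was 1.70 ± 0.24 (adjusted p = 0.00021) for Slc16a1 and -2.33 ± 0.35 (adjusted p = 0.00026) for Hk1. It was -1.26 ± 0.36 (adjusted p = 0.029) for Pfkfb4 and 0.88 ± 0.27 (adjusted p = 0.043) for Pgam1. The 2 positive values stand beside 4.53% of all genes and the 2 negative ones beside 6.62%. Pfkfb4 differed from no stimulus by -1.70 ± 0.26 at 4 h and -0.44 ± 0.26 at 2 h, and Hk1 by -1.45 ± 0.24 at 4 h and 0.89 ± 0.24 at 2 h. The block gave 11 (33.6% of all genes). The call of Pfkfb4 was lost without any 1 of 6 of the libraries in the fit (adjusted p up to 0.15, without the naive anti-IgM plus anti-CD40 2 h replicate 2 library). That of Pgam1 was lost without any 1 of 14 of the libraries in the fit (adjusted p up to 0.14, without the naive unstimulated 4 h replicate 2 library). Slc16a1 rose over no stimulus in naive B cells by 3.21 ± 0.17 at 4 h and 1.51 ± 0.17 at 2 h. Among GC B cells the effect at 4 h minus that at 2 h was called by limma for no member (0.639% of all genes), with 1 member at an unadjusted p under 0.05. The block called Pgls (0.93 ± 0.18, adjusted p = 0.0028), beside 7.07% of all genes.

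With both agents in set A, members also differed between the times. These groups had 3 libraries against 2 in set B, so the counts are not compared between the sets. At 4 h compared with 2 h, 13 rose (29.3% of all genes) and 6 fell (30.5%) in GC B cells. The naive B cells had 20 that rose (30.6% of all genes) and 6 that fell (26.8%). The median difference was 0.18 in GC and 0.46 in naive B cells, beside 0.00 and 0.03 over all genes. Of the markers of other cells, 3 of 6 myeloid, 1 of 2 erythroid and 1 of 3 stromal and endothelial were called lower at 4 h in GC B cells. In naive ones 3 of 6 myeloid, 2 of 2 erythroid, 1 of 3 T cell and 1 of 3 stromal and endothelial were. Their part in the time changes was not tested. Of the 7 pentose phosphate genes 6 were higher at 4 h in naive B cells. The differences were 1.23 ± 0.06 (adjusted p = 1.7e-16) for Tkt, 0.92 ± 0.07 (adjusted p = 1.1e-12) for Pgd and 0.92 ± 0.12 (adjusted p = 6.5e-08) for Rpe. They were 0.89 ± 0.29 (adjusted p = 0.0095) for Rpia, 0.74 ± 0.09 (adjusted p = 6e-08) for G6pdx and 0.73 ± 0.11 (adjusted p = 2.6e-06) for Pgls. Taldo1 was not called (0.12 ± 0.08, adjusted p = 0.23). The Rpia call was lost without the IL-21 plus anti-CD40 4 h replicate 2 library (adjusted p = 0.066). In GC B cells Hk2 (1.07 ± 0.18, adjusted p = 1.3e-05), Pfkl (1.02 ± 0.08, adjusted p = 4.7e-12), Ldha (1.00 ± 0.12, adjusted p = 5.1e-08) and Pgls (0.92 ± 0.11, adjusted p = 5e-08) had the largest called rises. Among naive B cells Pfkl rose by 1.08 ± 0.08 (adjusted p = 1.6e-12), Tpi1 by 1.06 ± 0.09 (adjusted p = 9e-12) and Ldha by 0.94 ± 0.12 (adjusted p = 1.6e-07). Hk1 fell in GC (-0.74 ± 0.12, adjusted p = 6e-06) and naive B cells (-0.95 ± 0.12, adjusted p = 8.7e-08). Aldoc fell in GC (-0.93 ± 0.35, adjusted p = 0.023) and naive B cells (-1.80 ± 0.35, adjusted p = 5.3e-05). The GC call was lost without any 1 of 2 libraries (IL-21 plus anti-CD40 2 h replicate 3 and IL-21 plus anti-CD40 4 h replicate 1; adjusted p up to 0.1). A difference between the cell types in these time changes was not tested.

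**Figure D5:**
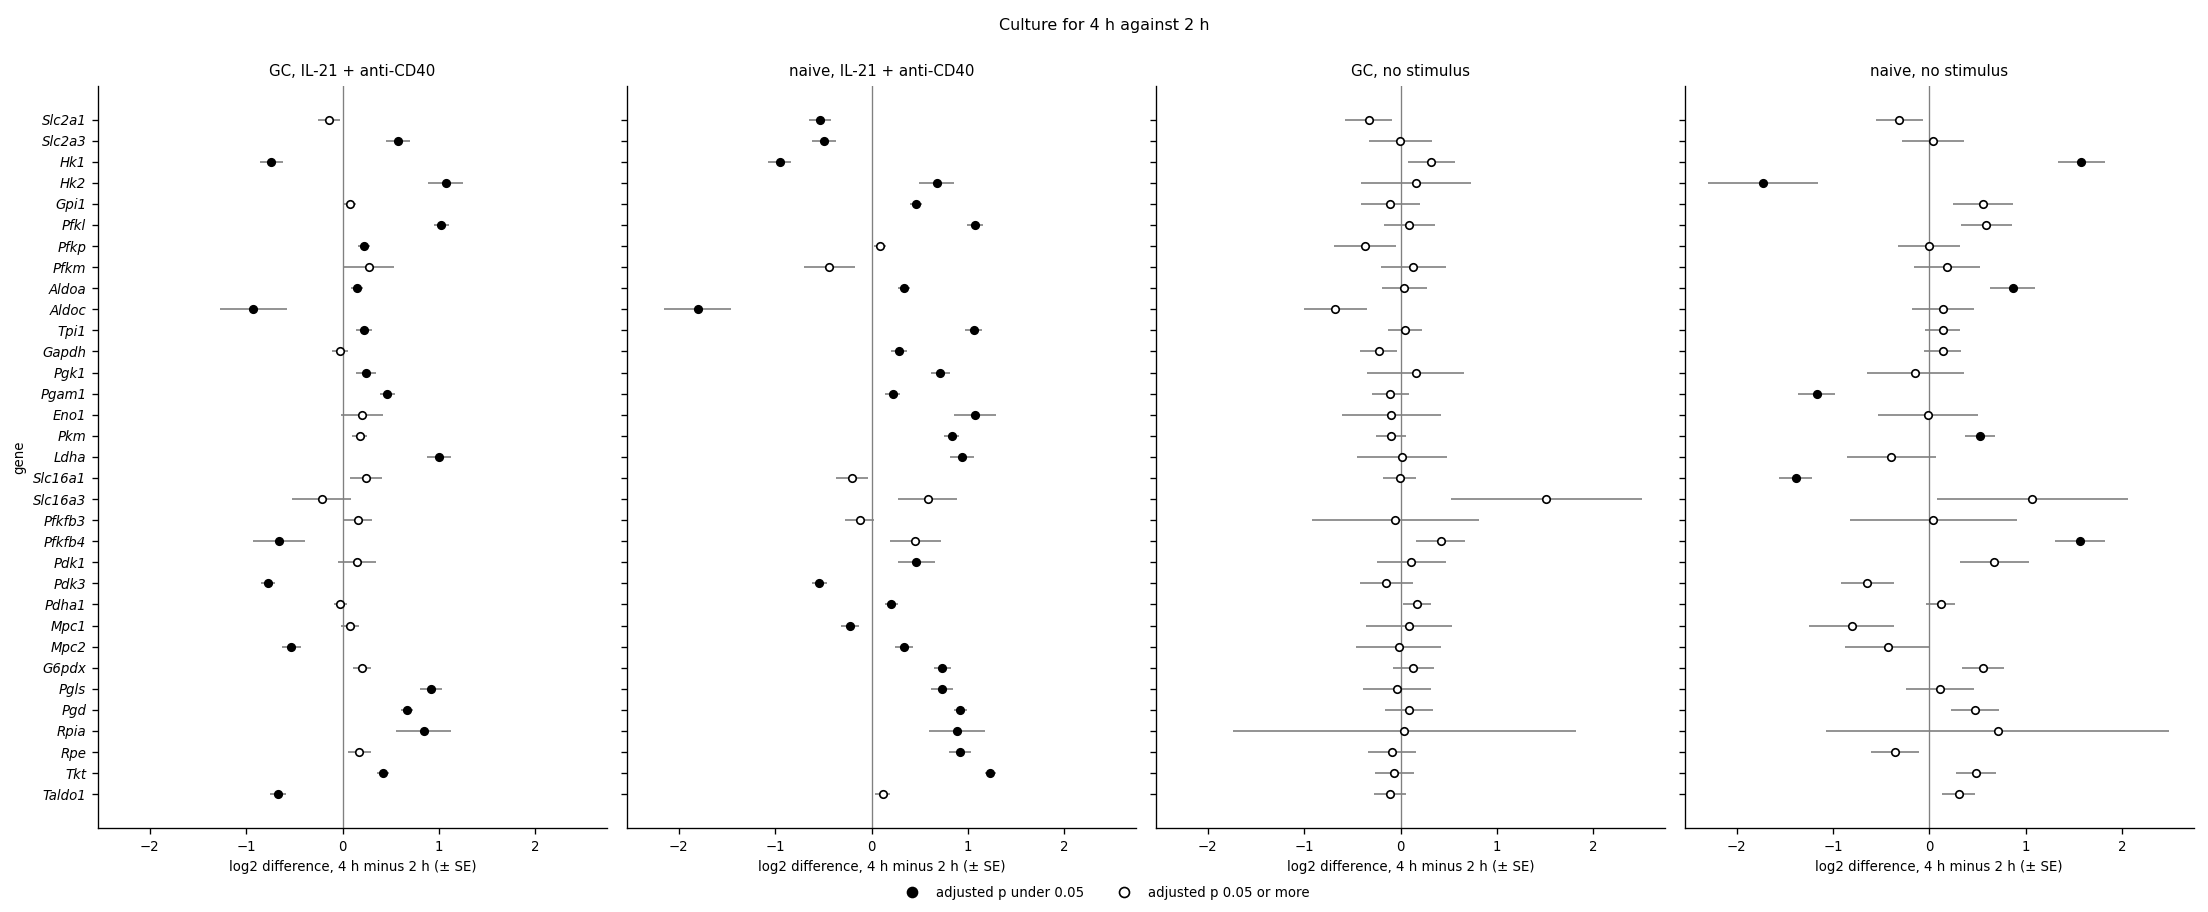
Log2 difference, 4 h minus 2 h, for each of the 33 genes with IL-21 plus anti-CD40 (set A) and without stimulus (set B) in GC and naive B cells, on 1 scale. Bars are ± SE and filled points have an adjusted p under 0.05. Unstimulated GC B cells have no filled point, and unstimulated naive B cells have 7, with Hk1 and Pfkfb4 to the right and Hk2 and Slc16a1 to the left.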

How the data were processed

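RNA was measured by SMART-Seq v4 sequencing in 66 libraries of mouse splenic B cells, per the labels' protocols. Per the submitters' processing notes reads were handled with STAR 2.6.1a, Trim Galore 0.6.5 and FastQC 0.11.7, with featureCounts (Subread 2.0.1), with limma and with build mm10. Their order, settings and normalization are not given in the sources used here. The authors deposited 1 log2 value per gene and library. These values hold no read counts, so sequencing depth is unknown. The commonest low value was -5.094 in the 34 libraries of set A and -4.833 in the 32 of set B, so the sets were taken as scaled separately and each comparison stays within 1 set. In replicate 1 of set B the highest value was 13.835 in GC and 14.582 in naive libraries. Whether GC and naive libraries were scaled together is not known, and its bearing on GC against naive levels was not tested.

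Each set was fitted with limma 3.58.1 (R 4.3.3, statmod 1.5.0) on the 11264 genes that exceeded 1 on the log2 scale in 4 or more libraries, as group means with a mean-variance trend and robust moderation, leaving 22 residual degrees of freedom in set A and 16 in set B. Tests are two-sided, and a gene was called at a Benjamini-Hochberg adjusted p under 0.05. On simulated data the fit recovered 52 of 100 genes changed by 1 and 84 of 100 changed by 2 on the log2 scale for anti-IgM plus anti-CD40 against none in GC B cells, with 5 false calls among 11264 genes, and 84 and 95 of 100 for IL-21 plus anti-CD40 against anti-CD40 in naive B cells, with 7. The simulated libraries varied independently and lacked the shared deviations of same-numbered libraries in set B. These counts therefore describe the fit under independent noise only.

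Replicate numbers come from the titles. In set B the deviations of same-numbered libraries from their group means correlated in all 32 pairs of GC libraries (0.54 to 0.73) and all 32 naive pairs (0.59 to 0.73), so the numbers pair the libraries, although the labels do not say what they share. The labels do not tie replicates to different mice, and the spread behind each p-value may therefore be technical.

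The members and the lists of other genes were chosen with earlier results of these data known. Up to 8 called members with the largest change per comparison, members of the same enzyme step and up to 4 genes per list by smallest adjusted p are named, and library values are given for up to 12 members. Gene coordinates are from GENCODE M21 on GRCm38, the assembly called mm10, and promoter windows from RefSeq on GRCm38.p6. Alternatives were the replicate block, 2 other filters, 2 other scalings, a pseudocount, plain moderation, 1 fit over both sets and leaving out each library. The fits that left out a library had no replicate block.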

Additional observations from a re-analysis of the deposited data

Results flagged for a closer look

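Tests of the difference between the GC and the naive response set 20 results apart. Anti-IgM moved 3 genes less in GC than in naive B cells, beside 3.82% of all genes called lower. For Slc16a1, the lactate transporter gene, the GC minus naive difference was -1.39 ± 0.17, from responses of 0.59 ± 0.12 in GC and 1.99 ± 0.12 in naive B cells. For Pgam1 it was -0.99 ± 0.19, from 0.18 ± 0.14 in GC and 1.16 ± 0.14 in naive B cells. For Gapdh it was -0.80 ± 0.19, from -0.08 ± 0.13 in GC and 0.72 ± 0.13 in naive B cells. With anti-IgM plus anti-CD40 the same 3 genes differed, Slc16a1 by -1.12 ± 0.17, Pgam1 by -0.74 ± 0.19 and Gapdh by -0.83 ± 0.19, beside 4.84% of all genes called lower. These 2 comparisons share their unstimulated libraries. Pfkfb4 differed by 0.87 ± 0.26, with responses of -0.20 ± 0.18 in GC and -1.07 ± 0.18 in naive B cells, beside 7.08% of all genes called higher. The Pfkfb4 call was lost without any 1 of 11 libraries. The unstimulated naive libraries, which enter all of these, differed between 4 h and 2 h in Slc16a1 (-1.39 ± 0.17), Pgam1 (-1.17 ± 0.19) and Pfkfb4 (1.56 ± 0.26). The part of that shift in the differences was not tested. Both Pgam1 and Gapdh share transcript stretches with pseudogenes.

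IL-21 added to anti-CD40 had a higher signed effect in GC than in naive B cells on 4 genes, beside 3.12% of all genes. The GC minus naive difference was 0.86 ± 0.13 for Slc2a3, 0.79 ± 0.19 for Hk2, 0.69 ± 0.15 for Pfkfb3 and 0.24 ± 0.07 for Pfkp. The Pfkp call was lost without any 1 of 4 libraries. The responses of Hk2 were 1.42 ± 0.14 in GC and 0.64 ± 0.13 in naive B cells, those of Slc2a3 0.62 ± 0.09 in GC and -0.24 ± 0.09 in naive B cells.

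Anti-CD40 added to IL-21 had a higher signed effect in GC than in naive B cells on 7 genes (11.2% of all genes) and a lower one on 2 (10%). The difference was 1.29 ± 0.15 for Pfkfb3, 1.17 ± 0.36 for Aldoc, 0.84 ± 0.19 for Hk2, 0.57 ± 0.12 for Slc2a1, 0.56 ± 0.20 for Pdk1, 0.26 ± 0.07 for Pfkp, 0.25 ± 0.06 for Aldoa, -0.28 ± 0.10 for Mpc2 and -0.24 ± 0.08 for Pkm. The responses of Pfkfb3 were 0.15 ± 0.10 in GC and -1.14 ± 0.11 in naive B cells, those of Aldoa -0.13 ± 0.04 in GC and -0.39 ± 0.05 in naive B cells and those of Pkm -0.45 ± 0.06 in GC and -0.21 ± 0.06 in naive B cells. The calls of Pdk1, Pkm and Mpc2 were lost without any 1 of 17, 14 and 23 libraries. The 2 groups with both agents are shared with the preceding comparison.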

How the results depend on the processing

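No called change of a member reversed its direction under any alternative run. Of 269 called changes over the 30 comparisons, 201 stayed called without every single library in turn. The call was lost for 55 in 1 fit over both sets, for 33 with no filter, for 10 with libraries scaled to the same sum, for 7 with plain moderation, for 4 with libraries centred to the same median, for 3 with a pseudocount of 1, for 3 with the replicate block of the labels, for 0 of 118 with the block of the file headers (set B) and for 0 of 261 with the stricter filter.

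With the replicate number of the labels as a block, the number of members called in GC B cells became 5 for anti-CD40 against none, 11 for anti-IgM against none, 16 for anti-IgM plus anti-CD40 against none, 6 for the combination against anti-CD40, 1 for the departure from the sum and 1 for the 4 h minus 2 h effect of the combination. In naive B cells it became 17, 18, 17 and 12 for the same 4 comparisons, 11 for the combination against anti-IgM, 10 for the departure, 16 for 4 h against 2 h without stimulus and 11 for the 4 h minus 2 h effect. The GC minus naive effect was called for 4 members with anti-CD40, 8 with anti-IgM and 9 with the combination. The share of all genes called rose too, for example from 9.05% to 22.8% for anti-IgM against none in GC B cells. With the numbers of the file headers as the block, chosen after seeing the data, the counts in GC B cells were 6, 11, 16, 6, 1 and 1, those in naive B cells 18, 19, 17, 13, 12, 10, 15 and 11, and the GC minus naive counts 5, 8 and 10, in the same order. In set A, the deviations of same-numbered libraries correlated above 0.1 in 4 of 40 pairs of GC libraries. Among naive libraries they did so in 5 of 40 pairs. The highest value was still shared by number, at 14.671, 14.647 and 14.623 in naive libraries of replicates 1, 2 and 3. Most GC libraries of set A held 14.634, 14.651 and 14.668 in that order. Whether set A was scaled by replicate number is not known. Its bearing on the set A p-values was not tested. There the block moved no count by more than 1.5 times. It ended the calls of Pfkfb4 in GC B cells (adjusted p = 0.064) and Slc2a3 in naive B cells (adjusted p = 0.052) for both agents against anti-CD40, and of Mpc2 for the GC minus naive effect against IL-21 (adjusted p = 0.055).

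In 1 fit over both sets, which shares the spread between them, the counts were 5 for anti-IgM against none in GC B cells, 11 for the combination against none in GC, 9 for IL-21 plus anti-CD40 against anti-CD40 in GC and 2 in naive, 12 for the same against IL-21 in GC, 16 for anti-CD40 and 17 for anti-IgM against none in naive, 6 for the combination against anti-IgM in naive, 5 for the departure in naive, 14 for 4 h against 2 h without stimulus in naive and 7 for the 4 h minus 2 h effect in naive. The GC minus naive counts were 1 for anti-CD40, 1 for IL-21 plus anti-CD40 against anti-CD40 and 2 against IL-21. With no filter the counts were 2 for the combination against anti-IgM in GC and 5 for the GC minus naive effect against IL-21. With libraries scaled to the same sum they were 3 for the combination against anti-IgM in GC and 4 in naive, 1 for the departure in naive and 1 for the GC minus naive effect of anti-CD40. The departure in naive B cells was called for 1 member with the stricter filter and for 1 with the pseudocount. The fit over both sets shares the spread and also pools the anti-CD40 groups of the sets. What changed the counts in these alternatives was not tested. Shares of all genes are not given beside them, so they are not read as changes of the members alone.

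Without each library in turn the count ran from 2 to 5 for the combination against anti-IgM in GC B cells, where each of the 8 libraries compared lowered it to 2 or 3, and from 3 to 7 against anti-CD40 in naive B cells, with 3 without the anti-CD40 4 h library numbered 4. It ran from 1 to 4 for the combination against anti-IgM in naive B cells, 0 to 1 for the departure in naive, 4 to 7 for 4 h against 2 h without stimulus in naive, 2 to 5 for the 4 h minus 2 h effect in naive, 6 to 12 for IL-21 plus anti-CD40 against anti-CD40 in naive (6 without the IL-21 plus anti-CD40 4 h replicate 3) and 0 to 1 for the GC minus naive effect of anti-CD40. Where this leaves 1 library in a group, that library is assumed to vary like the other groups. Shares of all genes are not given beside these counts either. Scaling to the same sum moved the median of all genes by 0.103 for GC against naive without stimulus. With depth unknown, changes of members near the floor, such as Slc16a3, cannot be bounded.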
